A study of Mus musculus with 8 samples.

Results

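AP-1 is a family of transcription factors that bind DNA as pairs of basic leucine zipper (bZIP) proteins, most often 1 Fos protein with 1 Jun protein. The 9 genes described here were Fos, Fosb, Fosl2, Jun, Junb, Jund, Atf3, Batf and Maff, taken by name from 51826 genes in the count table, and all 9 were among the 16484 genes that passed the filter on low counts. This family was selected on values of the same comparison, tRA against control, that is described here. The differences between groups in these 9 genes are therefore a description and not a test.

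Fos, Fosb, Jun, Junb, Atf3 and Maff are known as immediate early genes, which are switched on within minutes of a stimulus without new protein synthesis. Their messenger RNAs and proteins are short-lived. In lymphocytes AP-1 acts downstream of antigen receptors and MAP kinases, together with NFAT, on cytokine genes. Jund, in contrast, is known to be present in resting cells, and Batf is best known for its part in helper T cell and B cell differentiation.

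Spleens of Balb/c mice were taken at 3 months of age, red blood cells were lysed, and RNA of the remaining cells was sequenced. All-trans retinoic acid (tRA), the active metabolite of vitamin A, was given to 4 mice by mouth at 1 mg/kg daily from weaning, and the 4 control mice received the oil vehicle. None of the 8 mice received pristane, the oil used in this study to induce lupus. The comparison addresses which splenic transcripts differ after tRA given ahead of lupus induction. The treatment text of the labels gives the tRA dose for all 8 mice, so the groups follow the sample titles, and the vehicle is known from the study's methods. Each mouse gave 1 library, with totals from 30919272 counts in control mouse 4 to 37539631 counts in control mouse 1. Levels are given in CPM, counts scaled to 1000000 per library with TMM factors that ran from 0.964 to 1.05. Total splenocytes are a mixture, and fewer cells of a type cannot be told apart from less RNA per cell.

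All 9 genes had a mean log2 fold change below 0 with tRA, beside 49.7% of all genes tested, and the median over the 9 was -0.52 beside 0.0014 over all genes. None of the 9 passed an FDR of 0.1 with edgeR, nor did any other gene (0% of 16484). At an unadjusted p under 0.05 there were 3 of 9 (Fosb, Jun and Jund), beside 6.49% of all genes (1070). This count ran from 2 to 6 over the other settings, with 6 when tRA mouse 1 was left out, beside 12.6% of all genes in that fit. All 4 tRA mice lay below all 4 control mice in 2 of 9 genes (Fosb and Jun), beside 1.63% of all genes. With DESeq2, 27 genes (0.197% of 13698 with an adjusted value) passed an FDR of 0.1, and Jun was among them. The sum of the 9 genes was lowest in tRA mice 3 and 4, at 38.5% and 49.0% of the control mean. A fit without these 2 mice was chosen after the values were seen, because their AP-1 levels were lowest. A smaller difference was fixed by that choice and is not a test, so its values are given only with the other settings at the end. Leaving out 1 mouse at a time moved the median both ways, to -0.89 without tRA mouse 1 and to -0.30 without tRA mouse 3.

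Jun encodes the founding Jun protein, a strong transcriptional activator. Jun was measured at 2565, 2626, 2730 and 2122 CPM in control mice 1 to 4 and at 2094, 1869, 1231 and 1537 CPM in tRA mice 1 to 4. tRA mice 3 and 4 were lowest, and the groups did not overlap, but only 28.4 CPM separated control mouse 4 from tRA mouse 1. The mean was 2511 ± 268 CPM in controls and 1683 ± 378 CPM with tRA (SD, n = 4), a log2 fold change of -0.58 ± 0.15 (SE).

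Junb, a weaker activator that can oppose Jun, gave 2751, 2279, 2169 and 2096 CPM in the controls and 2743, 1912, 804 and 1043 CPM with tRA. tRA mouse 1 stood beside the highest control, tRA mouse 2 was just under the lowest, and tRA mice 3 and 4 were far below all controls. The log2 fold change was -0.52 ± 0.31 (SE).

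Jund gave 1056, 639, 683 and 486 CPM in the controls and 703, 408, 248 and 295 CPM with tRA. Control mouse 1 was high among the controls, and tRA mouse 1 lay within the control range while the other 3 tRA mice were below it. The log2 fold change was -0.79 ± 0.32 (SE), from -1.175 without tRA mouse 1 to -0.54 without control mouse 1.

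Fos, whose protein pairs with Jun proteins and not with itself, was measured at 3337, 3230, 3302 and 2866 CPM in the controls and at 3563, 2762, 1117 and 1420 CPM with tRA. tRA mouse 1 had the highest Fos level of all 8 mice and tRA mouse 3 the lowest, so the groups overlapped. The mean was 3184 ± 217 CPM in controls and 2216 ± 1148 CPM with tRA (SD, n = 4), and the log2 fold change was -0.52 ± 0.30 (SE).

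Fosb, a close relative of Fos, gave 3841, 3694, 2888 and 2851 CPM in the controls and 2842, 2402, 1255 and 1609 CPM with tRA. The groups were separate by only 9.50 CPM, between control mouse 4 and tRA mouse 1. The log2 fold change was -0.71 ± 0.23 (SE). Fosl2, which encodes Fra-2, was far lower, at 32.2, 44.9, 36.3 and 50.2 CPM in the controls and 62.1, 43.3, 22.0 and 34.5 CPM with tRA. The highest and the lowest Fosl2 levels were both in tRA mice, mouse 1 and mouse 3, and the log2 fold change was -0.02 ± 0.26 (SE), from -0.30 without tRA mouse 1 to 0.19 without tRA mouse 3.

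Atf3, a stress-induced partner of Jun proteins, gave 79.1, 110, 114 and 93.1 CPM in the controls and 141, 101, 19.5 and 34.5 CPM with tRA. tRA mouse 1 was above all controls, tRA mouse 2 among them, and tRA mice 3 and 4 below all of them. Maff encodes a small Maf protein that lacks an activation domain. It was at 40.3, 34.0, 27.7 and 26.8 CPM in the controls and at 39.1, 26.8, 3.50 and 6.60 CPM with tRA. Maff in tRA mouse 3 was at 10.9% of the control mean, the lowest such share among the 9 genes, from 129 counts. The log2 fold changes were -0.42 ± 0.48 (SE) for Atf3 and -0.77 ± 0.57 (SE) for Maff, both with SEs near or above the size of the change. Both depended on the mice and the tool. Atf3 was at -0.95 without tRA mouse 1, -0.11 without tRA mouse 3 and -0.83 with limma-voom. Maff was at -1.40, -0.42 and -1.39 in the same settings. Fos and Junb also moved by over 1.5 times, to -0.85 and -0.89 without tRA mouse 1 and to -0.30 and -0.29 without tRA mouse 3.

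Batf behaved differently from the rest. It gave 18.0, 14.5, 23.1 and 17.2 CPM in the controls and 16.8, 15.0, 16.2 and 17.4 CPM with tRA. All 4 tRA mice lay inside the control range, and tRA mice 3 and 4 were not low. The log2 fold change was -0.16 ± 0.13 (SE), from -0.25 to -0.03 with 1 mouse left out (control mouse 2 and control mouse 3).

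**Figure D1:**
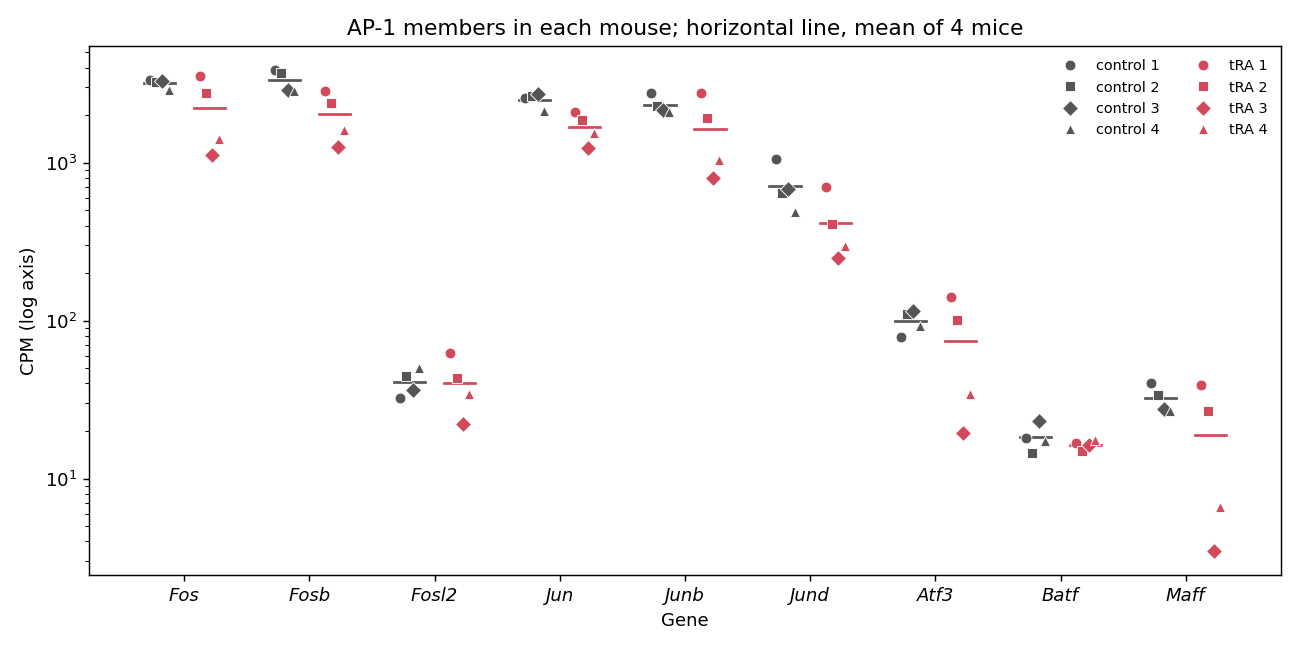
Level of each of the 9 AP-1 genes in each mouse, in CPM on a log axis, with controls in grey, tRA mice in red, 1 marker shape for each mouse number and a line at the mean of 4 mice. The red diamond (tRA mouse 3) is the lowest of the 8 mice in 8 of 9 genes, Batf excepted, while the red circle (tRA mouse 1) is at or above the control mean for Fos, Fosl2, Junb, Atf3 and Maff.

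Levels between genes were compared as CPM per kilobase of merged exon, with lengths from GENCODE M21. In the controls Fos was highest, at 1354 ± 92.0 CPM per kilobase, followed by Junb (1010 ± 128), Jun (787 ± 84.1), Fosb (532 ± 83.7) and Jund (429 ± 145). Atf3 followed at 46.1 ± 7.58 CPM per kilobase, then Batf (13.0 ± 2.56), Maff (12.4 ± 2.42) and Fosl2 (4.23 ± 0.844). Fosb and Jund did not differ beyond their spread (SD, n = 4), nor did Batf and Maff. Of the 1668 exon bases of Jund, 877 overlap a gene on the opposite strand. Whether reads there were counted is not known, so the place of Jund in this order is uncertain. The tRA means had the same order, from Fos (942 ± 488) to Fosl2 (4.18 ± 1.74), but single mice of both groups did not. Jund was above Fosb in control mouse 1 (633 against 615 CPM per kilobase), and Maff was above Batf in control mice 1 and 2 and in tRA mouse 1. Jun was above Junb in tRA mouse 3 (386 against 349 CPM per kilobase) and in tRA mouse 4 (482 against 453). Fosl2 was above Maff in both mice, and Batf was above Atf3 in tRA mouse 3 (11.5 against 9.06). Fosb has long merged exon sequence (6243 bases in 2 blocks, against 2352 bases for Fos), so that it was near Fos in CPM and well below it per kilobase. Merged exons join all annotated transcripts of a gene, so this length may exceed that of the Fosb message present. The place of Fosb in this order is therefore uncertain as well.

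The 9 genes together made up 13720, 12670, 11970 and 10610 CPM in control mice 1 to 4, or 1.06% to 1.37% of the scaled counts. With tRA the sum was 12200, 9539, 4715 and 5997 CPM, or 99.7%, 77.9%, 38.5% and 49.0% of the control mean. tRA mouse 1 thus matched the controls in sum, tRA mouse 2 was below the lowest control, and tRA mice 3 and 4 were well below it. Of the 9 genes, 2 were below all controls in tRA mouse 1, 6 in mouse 2, 8 in mouse 3 and 7 in mouse 4. Over all genes tested those shares were 18.3%, 17.2%, 23.1% and 23.8%.

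The proportions between members also varied from mouse to mouse. The ratio of Jun to Fos in CPM ran from 0.740 to 0.827 in the controls. It was 0.588 and 0.677 in tRA mice 1 and 2, below all controls, and 1.10 and 1.08 in tRA mice 3 and 4, above all controls. Jun was thus nearer its control level than Fos was in the 2 mice with little of either. The ratio of Fosb to Fos was 0.875 to 1.15 in the controls and 0.797, 0.870, 1.12 and 1.13 with tRA.

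The spread between mice of the same group was unlike in the 2 groups. The SD of log2 CPM of Fos was 0.101 among controls, greater than in 21.2% of genes tested, and 0.787 among tRA mice, greater than in 96.6%. For Maff these SDs were 0.274 and 1.64, and for Atf3 0.245 and 1.33, the tRA values being greater than in 99.9% and 99.7% of genes. Batf went the other way, with 0.277 among controls and 0.0926 among tRA mice.

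Covariation was described with each mouse centred on the mean of its own group, which takes out the difference between groups. These values share libraries and carry no p. Against the mean of the other members over 8 mice, Pearson r was 0.994 for Fos, 0.986 for Junb, 0.983 for Maff, 0.947 for Atf3, 0.943 for Fosb and 0.925 for Jun. It was lower for Jund (0.812) and Fosl2 (0.789), and -0.09 for Batf. Spearman rho was 0.976 for Fos, 1 for Junb, 0.976 for Maff, 0.833 for Atf3, 0.976 for Fosb, 0.881 for Jun, 0.857 for Jund, 0.5 for Fosl2 and -0.14 for Batf. The mice farthest from the median of the mean profile were tRA mice 1 and 3. In the other 6, centred again, r was 0.992 for Fos, 0.964 for Maff, 0.953 for Junb, 0.816 for Fosb, 0.785 for Atf3, 0.735 for Jun, 0.507 for Jund, 0.04 for Fosl2 and -0.35 for Batf. The relation of Fosl2 with the others thus rested on those 2 mice.

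Among 9102 other genes with a mean of at least 10 CPM, the median r with the mean profile of the members was 0.104, and 235 genes had an r of at least 0.9. The highest 10 were Epop (0.995), Thap6, Plk2, Mafk, Gm26532, Marcksl1, Zfand2a, Rgs2, Mir17hg and Btg2 (0.987). Without tRA mice 1 and 3, r for these 10 ran from 0.941 to 0.980, with the limit given above for that smaller set. Mafk encodes another small Maf protein, Plk2 a kinase, Rgs2 a regulator of G protein signalling and Btg2 an antiproliferative protein. Mafk gave 173, 157, 147 and 143 CPM in the controls and 188, 150, 81.2 and 101 CPM with tRA. Plk2 gave 65.8, 52.6, 52.3 and 53.4 CPM in the controls and 91.7, 53.8, 11.2 and 18.1 CPM with tRA. As in Fos, tRA mouse 1 was highest and tRA mouse 3 lowest for both genes.

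The gene lists from here on were chosen with earlier results of these data known. Their counts are a description and not a test. Over all genes tested, 49.7% had a log2 fold change below 0 and 6.49% an unadjusted p under 0.05. All 4 tRA mice lay below all 4 control mice in 1.63%. Of 20 other bZIP partners of AP-1, 14 had a log2 fold change below 0 (median -0.09), and Atf5 was the only 1 with an unadjusted p under 0.05. Their sum was 1542, 1485, 1563 and 1394 CPM in the controls and 1614, 1420, 1173 and 1268 CPM with tRA. tRA mice 3 and 4 lay below all controls. Atf4, the most abundant partner and a stress-response factor, gave 499, 460, 624 and 442 CPM in the controls and 570, 430, 291 and 307 CPM with tRA. tRA mice 3 and 4 were again the lowest. Of 15 MAP kinases and their kinases, 6 were below 0 (median 0.0026), and Map2k2 was the only 1 with an unadjusted p under 0.05, at a log2 fold change of -0.15. Map2k2 lay at 101 to 108 CPM in the controls and 87.9 to 101 CPM with tRA, without overlap by a small margin (101.3 against 100.9). The most abundant, Map3k1, was at -0.04. Of 15 factors known to act on the Fos and Jun promoters, 7 were below 0 (median 0.02). Among them was Srf, which drives Fos through serum response elements, at 138, 126, 128 and 124 CPM in the controls and 123, 112, 110 and 110 CPM with tRA. All tRA mice were below all controls for Srf, by a small margin, with a log2 fold change of -0.18. Mef2d, the most abundant of these factors, was at -0.01. The list of Jun turnover genes had 3 of 5 below 0 (median -0.01; Itch, a ligase that marks Jun proteins for breakdown, at 0.10). The NFAT partners had 3 of 7 (median 0.05; Nfatc1 at -0.04). None of these genes passed an FDR of 0.1.

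Of 12 genes known as AP-1 targets, 11 were tested, and 8 were below 0 (median -0.13). Il6 did not pass the filter on low counts. Mt1, a metallothionein, was at -0.52, with 5.47, 5.14, 4.45 and 3.43 CPM in the controls and 3.57, 3.24, 3.23 and 2.84 CPM with tRA, so that the groups overlapped slightly. Vim, the most abundant target, was at 0.11. Summed over the list, tRA mice 3 and 4 had 803 and 823 CPM, against 858 to 960 CPM in the controls and 1027 and 922 CPM in tRA mice 1 and 2.

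The other immediate early genes were also lowest in tRA mice 3 and 4. Their summed level was 9862, 9509, 9084 and 8624 CPM in the controls and 10890, 8258, 3968 and 4876 CPM with tRA. A log2 fold change below 0 was seen in 15 of 16 (median -0.36), beside 49.7% of all genes. Zfp36, which speeds decay of AU-rich messages and was the most abundant, gave 2740, 2226, 1389 and 1596 CPM with tRA against 2469 to 2736 CPM in the controls. Egr1, a zinc finger factor, gave 754, 909, 952 and 731 CPM in the controls and 624, 623, 378 and 302 CPM with tRA. Egr1 was lower in all 4 tRA mice than in all 4 controls, as were 1.63% of all genes, and differed by a log2 fold change of -0.80. Ier5 was at -0.41 (-0.28 without tRA mouse 3 and -0.58 without tRA mouse 1). Neither passed an FDR of 0.1.

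Of the heat shock genes, all 10 were below 0 (median -0.96), beside 49.7% of all genes. An unadjusted p under 0.05 was seen for 8 of 10, beside 6.49% of all genes. The 6 heat shock genes with the smallest p were Bag3, Dnajb1, Hspb1, Hsph1, Hspa1a and Hspa1b. Dnajb1, a co-chaperone of Hsp70, gave 709, 611, 1094 and 730 CPM in the controls and 302, 514, 204 and 521 CPM with tRA. Among the tRA mice, mice 1 and 3 were lowest for 5 of these 6 genes. Bag3, a co-chaperone, was the exception, at 29.96, 26.5, 49.96 and 34.3 CPM in the controls and 20.2, 26.4, 12.1 and 17.7 CPM with tRA, lowest in tRA mice 3 and 4 as the AP-1 sum was. Hspa1a and Hspa1b are near-identical copies, so the division of their reads is uncertain. The part of heat shock genes in the AP-1 levels was not tested.

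**Figure D2:**
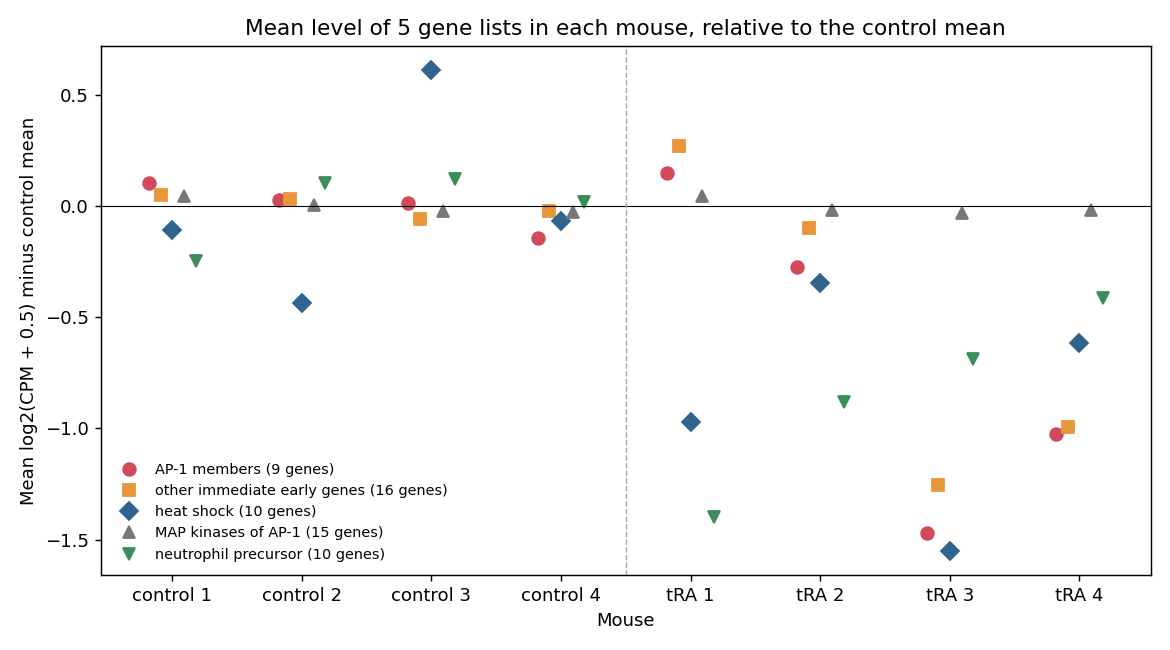
Mean of log2(CPM + 0.5) over the genes of 5 lists in each of 8 mice, minus the control mean of each gene. AP-1 and the other immediate early genes are both low in tRA mice 3 and 4 (AP-1 at -1.47 and -1.02, the others at -1.26 and -0.99) and nearer 0 in tRA mice 1 and 2, heat shock genes are low in tRA mouse 1 as well (-0.97), and MAP kinases stay within 0.05 of 0.

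Retinoic acid receptors and targets were level, with 3 of 7 tested genes below 0 (median 0.01). Rara, the most abundant receptor, was at 116 to 142 CPM in the controls and 128 to 144 CPM with tRA. Rxrg, Cyp26a1 and Cyp26b1 did not pass the filter.

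Markers of the cell types of spleen were measured beside AP-1, and their part in the AP-1 levels was not tested. B cell markers (6 of 6 tested, most abundant Cd79a) summed to 5881, 5519, 5435 and 4932 CPM in the controls and 5476, 5635, 5476 and 5444 CPM with tRA. T cell markers (6, Lck) summed to 1161, 1201, 1425 and 1407 CPM in the controls and 1372, 1309, 1382 and 1336 CPM with tRA. For both lists the sums of all 4 tRA mice lay within the control range. Cd79a alone was at 1273 to 1540 CPM in the controls and at 1377, 1302, 1227 and 1179 CPM with tRA. It was thus below all controls in tRA mice 3 and 4. The 4 NK cell markers (Nkg7) summed to 133 to 199 CPM in the controls and 166 to 189 CPM with tRA. The 9 monocyte and macrophage markers (Lyz2) summed to 906 to 1453 and 1018 to 1340 CPM, and the 6 dendritic cell markers (Itgax) to 137 to 208 and 120 to 175 CPM. The 5 markers of stroma and endothelium (Pecam1) summed to 240 to 253 CPM in the controls and 243 to 254 CPM with tRA, nearly all of it Pecam1. The mean log2 level over these 5 genes, relative to the controls, ran from -0.27 in tRA mouse 4 to 0.33 in tRA mouse 3. Among the controls it ran from -0.23 in mouse 1 to 0.24 in mouse 3. A log2 fold change below 0 was seen in 2 of 6 B cell, 2 of 6 T cell, 3 of 4 NK cell, 5 of 9 monocyte and macrophage, 5 of 6 dendritic cell and 2 of 5 stromal and endothelial markers. No marker was at 0 in all libraries, and none of these had a gene with an unadjusted p under 0.05.

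Neutrophil precursor genes had 10 of 10 log2 fold changes below 0 (median -0.87), beside 49.7% of all genes. Of these 10, 9 had an unadjusted p under 0.05, beside 6.49% of all genes. The sum of the 10 precursor genes (most abundant Ngp) was 563, 711, 751 and 644 CPM in the controls and 255, 321, 351 and 501 CPM with tRA. The sum was below all controls in all 4 tRA mice and lowest in tRA mouse 1. Camp, a granule peptide, had the lowest FDR of all genes, 0.135 by edgeR, at a log2 fold change of -1.23 and lower in all 4 tRA mice. The others named by the same rule were Ngp (-0.92), Ltf (-0.88), Lcn2 (-0.71), Olfm4 (-0.79) and Fcnb (-0.86). For Lcn2 and Olfm4 tRA mouse 4 was above control mouse 1. Mature neutrophil genes (4 of 6 below 0, median -0.26) included S100a9 (-0.58) and S100a8 (-0.63), while Csf3r, the most abundant, was at 0.25 (0.09 without control mouse 1 and 0.50 without control mouse 2). Their sum was 526, 859, 685 and 661 CPM in the controls and 614, 557, 444 and 790 CPM with tRA. Plasma cell genes (3 of 6 below 0, median -0.08) included Mzb1 (-0.31) and Jchain (-0.46), and summed to 1070, 1025, 1041 and 1228 CPM in the controls and 944, 1070, 809 and 820 CPM with tRA. The plasma cell sums of tRA mice 1, 3 and 4 were below all controls. Erythroid and platelet genes (2 of 8 below 0, median 0.35, most abundant Hbb-bs) summed to 756, 1450, 2261 and 472 CPM in the controls and 2198, 598, 3432 and 561 CPM with tRA. Among tRA mice they were high in mice 1 and 3 and low in mice 2 and 4. Ppbp did not pass the filter.

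Positions were read from GENCODE M21 on GRCm38. Fos (chr12:85473890-85477273, plus strand, ENSMUSG00000021250) and Batf (chr12:85686669-85709087, plus strand, ENSMUSG00000034266) lie on the same chromosome. Junb (chr8:84974484-84978718, minus strand, ENSMUSG00000052837) and Jund (chr8:70698949-70700616, plus strand, ENSMUSG00000071076) share another. The others are Fosb (chr7:19302696-19310051, minus, ENSMUSG00000003545), Fosl2 (chr5:32135801-32157842, plus, ENSMUSG00000029135), Jun (chr4:95049034-95052222, minus, ENSMUSG00000052684), Atf3 (chr1:191170296-191218039, minus, ENSMUSG00000026628) and Maff (chr15:79346621-79359076, plus, ENSMUSG00000042622). Jun and Jund each have 1 exon. Jun overlaps the antisense gene Junos in 232 bases of exon, Junb overlaps Prdx2 in 173, and Jund overlaps Gm11175 in 877, each on the opposite strand. Whether counting used strand is not stated, so reads from these overlaps cannot be told apart. Junos had 15 to 32 counts in each library and Gm11175 had 0, against at least 45382 counts for Jun and 9150 for Jund. Prdx2 had 1225 to 2163 counts, against at least 29636 for Junb. The gene Gm24748 lies in an intron of Atf3 and had 0 counts.

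Because 8 of the 9 genes were lowest in the same mouse, their promoters were searched for motifs that these genes could share. The 250 bases before each RefSeq start (GRCm38.p6) were taken, 11 starts for 9 genes. Both strands were searched. TGACG, the core of the cAMP response element, was in 6 of 9 genes (Fos, Fosb, Junb, Atf3, Batf and Maff), or 7 of 11 starts, beside 17.8% of 32851 mouse promoters of the same length. Of the other immediate early genes, 12 of 16 had a RefSeq promoter, and 7 of these 12 held TGACG (9 of 16 starts) and 2 of 12 a CArG box. TGACGTCA, the full element, which contains TGACG, was in Maff (1.55% of promoters), and TGACATCA, a variant known to bind Jun with Atf2, was in Jun and Maff (2.93%). TGANTCA, the AP-1 site itself (6.75%), the CArG box bound by Srf (1.47%) and the retinoid repeats DR1 (0.164%), DR2 (0.174%) and DR5 (0.0883%) had no match in the windows of the 9 genes. Fosl2 and Jund had no match to any of these motifs, and the Jund RefSeq start lies upstream of the GENCODE start. A match is a description of letters. Sites beyond these 250 bases were not searched, so no match here does not mean that a gene lacks the site. This holds for Fos and the CArG box as well. With shares as low as those of the CArG box and the retinoid repeats, no match in 11 starts says little.

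The promoters of Fos, Fosb, Jun and Maff are shown as examples of each kind of match, 5′ to 3′ on the strand of the gene, with matches in capitals. They lie at chr12:85473640-85473889 (plus) for Fos, chr7:19310046-19310295 (minus) for Fosb, chr4:95052223-95052472 (minus) for Jun and chr15:79347270-79347519 (plus) for the second start of Maff. Fos has TGACG from 129 to 125 and from 66 to 62 bases before its start, Fosb from 60 to 56. Jun has TGACATCA from 45 to 38 bases before its start, and Maff has TGACGTCA from 29 to 22.
Fos: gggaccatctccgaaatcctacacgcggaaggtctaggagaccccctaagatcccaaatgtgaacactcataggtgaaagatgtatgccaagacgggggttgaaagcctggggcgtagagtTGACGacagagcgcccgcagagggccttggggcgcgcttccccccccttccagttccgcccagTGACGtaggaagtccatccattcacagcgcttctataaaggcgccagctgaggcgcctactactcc
Fosb: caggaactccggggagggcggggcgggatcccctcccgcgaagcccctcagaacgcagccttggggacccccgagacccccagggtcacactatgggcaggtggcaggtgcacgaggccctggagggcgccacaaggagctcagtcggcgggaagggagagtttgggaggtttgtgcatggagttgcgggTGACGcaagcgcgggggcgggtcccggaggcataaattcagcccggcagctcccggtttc
Jun: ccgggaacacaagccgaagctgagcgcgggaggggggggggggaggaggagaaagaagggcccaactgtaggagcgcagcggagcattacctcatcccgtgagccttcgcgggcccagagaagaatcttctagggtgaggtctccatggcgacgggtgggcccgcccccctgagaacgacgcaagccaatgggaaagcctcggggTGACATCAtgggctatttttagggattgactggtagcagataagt
Maff: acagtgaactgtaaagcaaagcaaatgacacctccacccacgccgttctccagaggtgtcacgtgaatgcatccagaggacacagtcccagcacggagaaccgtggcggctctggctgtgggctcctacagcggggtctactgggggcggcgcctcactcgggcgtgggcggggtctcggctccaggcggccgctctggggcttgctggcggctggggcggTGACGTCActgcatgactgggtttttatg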

How the data were processed

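The authors sequenced TruSeq v2 libraries of 8 mice and deposited raw read counts per Ensembl gene. The study's methods name Tophat2 and HTSeq, whereas the submitters' processing notes list STAR 2.5.2b, featureCounts 1.5.1 and DESeq2 1.26.0 on GRCm38; which made the counts is not known. A deposited table of the authors' own DESeq2 comparison (means, fold changes and p-values) was not used. Gene symbols came from GENCODE M21, which held 51633 of 51826 identifiers.

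Counts were fitted with edgeR 4.0.16 in R 4.3.3 (filterByExpr, TMM, quasi-likelihood test, group as the only term, Benjamini-Hochberg over 16484 genes), tested on simulated data. DESeq2 1.42.0 and limma 3.58.1 were alternatives, with other scaling, filters, a replicate block and each mouse left out. To look for a library deposited more than once, libraries of a group were compared with counting noise, and none matched (chi-square per degree of freedom at least 12.9).

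The 9 members and the 19 other lists were chosen with earlier results of these data known. From each list, genes with an unadjusted p under 0.05 and the most abundant gene were named, at most 6 a list by smallest p, with the 10 genes most alike. Leaving out tRA mice 3 and 4 together was added after the values were seen. Promoter searches for the CAAT box, TATA box and heat shock element were also run and are not described.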

Additional observations from a re-analysis of the deposited data

Results flagged for a closer look

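In 154 groups of 4 values examined (each named gene and each list sum, in each group), 6 had 1 mouse far from the other 3, by a gap of over 0.829 of the range. Chance alone gives about 1 in 20 such groups. None of the 9 AP-1 genes was among them. Srf was high in tRA mouse 1 (123 CPM, others 110 to 112), as was Lck (568 CPM, others 477 to 491). Hspa1a was high in control mouse 3 (942 CPM, others 317 to 412), and Plk2 in control mouse 1 (65.8 CPM, others 52.3 to 53.4). Camp was high in tRA mouse 4 (42.7 CPM, others 25.2 to 26.9), and the B cell sum in tRA mouse 2 (5635 CPM, others 5444 to 5476).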

How the results depend on the processing

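The count of genes with an FDR under 0.1 was 0 with edgeR, 27 with DESeq2, 1 with limma-voom and 6 with no filter on low counts, and the cause of these differences was not tested. Of the settings given here, DESeq2 alone called a member, Jun. Under the other planned scalings, filters and tests all 9 members were below 0. Members with an unadjusted p under 0.05 numbered 3 with edgeR (beside 6.49% of all genes), 2 with DESeq2 (4.18%), 2 with robust empirical Bayes (6.47%), 4 with limma-voom (6.75%), 5 with no filter on low counts (5.34%) and 6 with the replicate block (7.28%). These shares are of 29805 genes with DESeq2, 29817 with no filter and 16484 in the other fits named here. The same-numbered mice did not pair (r of their deviations 0.157, -0.02, -0.01 and 0.259). With the replicate block the FDR count was 0, 1200 genes had an unadjusted p under 0.05, and the median of the members was -0.68, with 9 below 0.

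Leaving out 1 mouse gave 0 to 3 genes with an FDR under 0.1 and 657 to 2105 with an unadjusted p under 0.05. The 3 and the 657 came without tRA mouse 4, and the 2105 without tRA mouse 1. Members with an unadjusted p under 0.05 numbered 6 without tRA mouse 1 (Fos, Fosb, Jun, Junb, Jund and Maff, beside 12.6% of all genes), 2 without control mouse 1 or tRA mouse 2, 3 or 4 (Fosb and Jun, beside 3.93% to 5.25%), and 3 without any other control (5.44% to 6.78%). The members below 0 numbered 8 to 9, Fosl2 being the exception, and their median ran from -0.89 (without tRA mouse 1) to -0.30 (without tRA mouse 3). Without tRA mice 3 and 4 together, a setting added after the values were seen, 3 genes had an FDR under 0.1. An unadjusted p under 0.05 was seen for 678 genes (3.98%), 2 members among them (Fosb and Jun). Of the 9 members, 5 were below 0, with a median of -0.01 beside -0.009 over all genes. Jun and Fosb were at -0.34, Jund at -0.37, Batf at -0.20 and Fos at -0.01. Fosl2, Junb, Atf3 and Maff were above 0. That setting has fewer samples. The reverse, without tRA mice 1 and 2, was also run after the values were seen. It called more genes, members among them, so the 2 choices pulled in opposite directions. The values of the reverse fit are not given, since comparing tRA mice picked for low AP-1 with the controls has its outcome fixed by the picking. Leaving out mice 3 and 4 was likewise chosen on the AP-1 levels, so its smaller difference was fixed in the same way. The mice farthest from the median of the mean AP-1 profile were tRA mice 1 and 3. No conclusion is drawn from either fit. With 4 mice a group, and a median that ran from -0.89 to -0.30 with 1 mouse left out, the size of the difference is poorly fixed.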
